A study of Mus musculus with 4 samples.

Results

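The genes described here are 9 signalling cues of the embryonic limb, namely the GDNF family ligands Gdnf, Artn and Nrtn, the neurotrophins Bdnf and Ntf3, the muscle-guiding ligand Hgf, and the chemokine Cxcl12 with its receptors Cxcr4 and Ackr3. All 9 were found by gene symbol among the 25239 genes of the deposited count table. They were chosen by signalling role, with their differences between the anterior and central libraries of this study already known, so those differences are given below as a description and without a test.

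Expression was measured by RNA sequencing in cells of FVB mouse hindlimbs at embryonic day 11.5. Every embryo, in both groups, was wild-type apart from a reporter inserted at the H11 locus, H11^hsp68-hZRS(404G>A)-mCherry, which places mCherry behind the hsp68 minimal promoter and the human form of the ZRS carrying the 404G>A substitution. The anterior group held cells of the dissected anterior domain that sorted as mCherry+, and the central group held cells of the dissected central domain that sorted as mCherry-, with 2 libraries each. Position and reporter activity therefore cannot be told apart, and the labels do not say whether the 2 libraries of a group came from separate embryos or pools. The p-values given for other genes then measure only the spread between these libraries. The ZRS is the limb enhancer of Shh, and the study asks about enhancer activation by noncoding variants.

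Library totals ranged from 30080925 to 33257383 counts, and 14610 genes passed a filter on low counts and were tested with edgeR. Between 72.8% and 75.7% of the counts from 1 to 10 were even, so both mates of a read pair may have been counted. Among markers of cell types that the sorted fractions could hold, limb mesenchyme genes were abundant in every library, at 2408 to 2785 CPM summed over 8 genes (CPM, TMM-scaled counts per M counts of the library). Of these, Prrx1, Pitx1 and Tbx4 were not called different, 2 were lower and 3 higher in anterior cells. In the central libraries markers of muscle precursors, surface ectoderm and endothelium were higher, and in the anterior libraries those of red cells and macrophages, as detailed beside the genes they touch.

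GDNF family ligands signal through the receptor tyrosine kinase Ret together with a GPI-anchored co-receptor of the Gfra group, and support the growth, survival and guidance of motor, sensory and autonomic axons. Neurotrophins bind Trk receptor kinases and the shared receptor Ngfr, and sustain sensory and motor neurons that innervate the limb. Hgf, made by mesenchyme, acts through the receptor Met to release muscle precursors from the somite and draw them into the limb bud. Cxcl12 attracts cells that carry Cxcr4, among them migrating muscle precursors and endothelial cells, whereas Ackr3 binds and removes the chemokine.

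The promoter sequences of the 4 genes with the widest differences are shown to give the DNA next to a RefSeq start of each gene. Each is the run of 250 bases just before the first start listed for the gene by RefSeq on GRCm38.p6, the patched form of the mm10 build named in the submitters' processing notes. For Gdnf and Cxcr4 the bases just after that start were not found in a GENCODE M21 transcript. Their RefSeq starts are at 7810048 and 128592299, and the GENCODE genes begin at 7810846 and 128592293. Capitals mark matches, on either strand, to the TATA box motif TATAAA, the GC box motif GGGCGG, the bHLH factor E-box motif CAGCTG or the hypoxia response core ACGTG. The windows are Gdnf at chr15:7809798-7810047 (plus strand), Hgf at chr5:16553245-16553494 (plus strand), Cxcl12 at chr6:117168285-117168534 (plus strand) and Cxcr4 at chr1:128592300-128592549 (minus strand).
Gdnf: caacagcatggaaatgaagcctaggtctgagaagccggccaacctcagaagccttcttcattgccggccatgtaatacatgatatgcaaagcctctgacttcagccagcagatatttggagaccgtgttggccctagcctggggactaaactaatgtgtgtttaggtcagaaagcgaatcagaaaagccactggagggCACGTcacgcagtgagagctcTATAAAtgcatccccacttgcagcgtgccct
Hgf: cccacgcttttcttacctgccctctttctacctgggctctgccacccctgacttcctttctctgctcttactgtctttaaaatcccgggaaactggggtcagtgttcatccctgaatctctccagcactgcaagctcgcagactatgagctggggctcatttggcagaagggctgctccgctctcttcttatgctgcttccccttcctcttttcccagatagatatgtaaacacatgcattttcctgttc
Cxcl12: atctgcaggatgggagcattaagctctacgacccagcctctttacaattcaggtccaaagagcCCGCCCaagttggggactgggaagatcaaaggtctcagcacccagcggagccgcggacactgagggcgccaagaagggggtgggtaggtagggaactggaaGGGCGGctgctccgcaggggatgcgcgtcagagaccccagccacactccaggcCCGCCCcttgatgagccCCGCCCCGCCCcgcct
Cxcr4: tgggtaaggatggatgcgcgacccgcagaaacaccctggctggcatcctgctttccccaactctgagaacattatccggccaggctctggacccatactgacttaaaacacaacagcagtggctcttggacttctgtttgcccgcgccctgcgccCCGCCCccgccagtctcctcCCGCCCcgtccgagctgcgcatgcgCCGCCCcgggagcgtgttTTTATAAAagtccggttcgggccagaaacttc

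These windows had little in common. Gdnf had a TATA box at -31 to -26 from its RefSeq start and the hypoxia core on the opposite strand at -52 to -48. Cxcr4 combined a TATA box at -30 to -25, whose letters overlap a second match on the opposite strand at -32 to -27, with 3 GC boxes. Cxcl12 had 5 GC boxes, the last pair sharing a base, and no TATA box, and Hgf matched none of the motifs. GC content was 64.4% for Cxcl12 and 61.2% for Cxcr4 but 50.8% for both Gdnf and Hgf, where the median of all 32851 windows was 52.4%. The 9 genes had 18 windows, since several have more than 1 start. Bdnf had the most, so the genes weigh unequally in these counts. Of the 18 windows, 9 held a GC box, 3 the TATA box, 3 the E-box and 5 the hypoxia core, while 32.7%, 12.4%, 13.0% and 16.6% of all windows did. The homeodomain site TAATTA, the GLI site GACCACCCA and the cAMP response element TGACGTCA had no match in the 18 windows, and were present in 4.84%, 0.225% and 1.55% of all windows. A match describes the letters only.

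All 9 cue genes were less abundant in anterior cells, and for each of them both anterior libraries lay below both central ones. Such separation in this direction was seen in 32.6% of all tested genes. The fit called 9 of the 9 genes lower, beside 22.9% of tested genes called in either direction (3351 of 14610) and 12.3% called lower. Since these genes were chosen on this contrast, nothing is read from that count. Without anterior replicate 2 the calls over all genes numbered 2009. The cue genes had a median log2 fold change (anterior minus central) of -2.31, against -0.01 over all tested genes, and single values ran from -0.78 for Bdnf to -8.14 for Gdnf. In bulk samples, fewer cells of a type and less RNA per cell cannot be told apart.

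**Figure D1:**
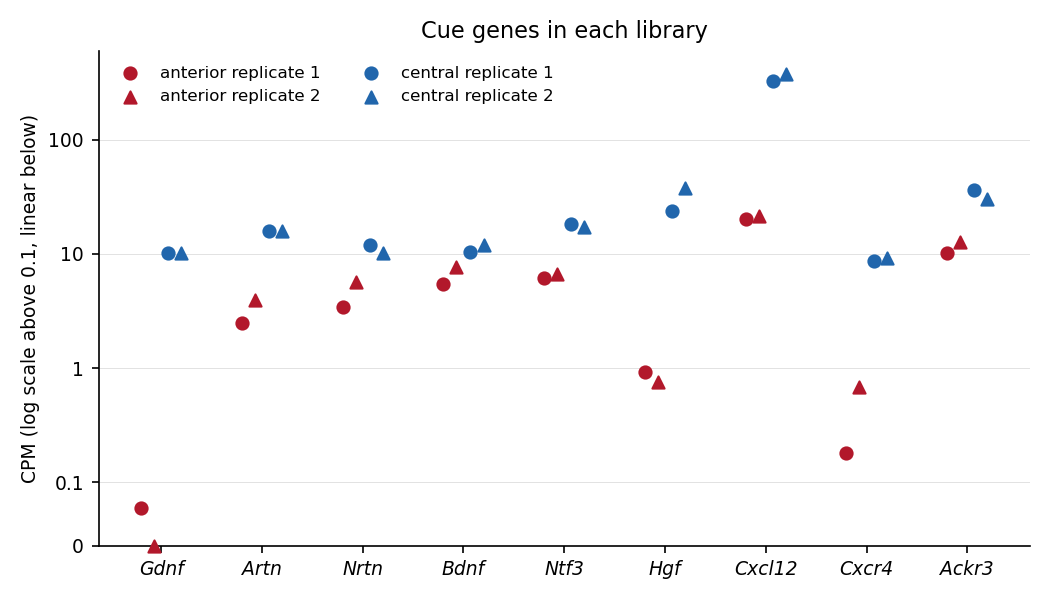
CPM of each cue gene (log scale above 0.1, linear below) in the 2 anterior (red) and 2 central (blue) libraries, with circles for replicate 1 and triangles for replicate 2. The red points lie below the blue ones for every gene, from a near-touching pair for Bdnf (7.67 and 10.4 CPM at the nearest) to Gdnf, with 2 and 0 counts in the anterior libraries.

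Gdnf, the founding ligand of its family and a guidance cue for hindlimb motor axons, was close to absent from anterior cells. Anterior replicates 1 and 2 gave 2 and 0 counts for it, and central replicates 1 and 2 gave 310 and 329. The central libraries were nearly alike, whereas both anterior values were under the floor of 3 counts. The pooled ratio of central to anterior was 317, with a 95% exact binomial interval of 87.4 to 2624 that covers counting error only. On halved counts the lower limit was 56.6. The fitted log2 fold change of -8.14 depends on the prior count, and was -7.30 without anterior replicate 2 and -11.28 without anterior replicate 1. Gdnf lies at chr15:7810846-7837575 in GENCODE M21.

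Artn, a ligand for sympathetic and sensory axons, was present in anterior cells at a lower level. It measured 2.49 and 3.92 CPM in the anterior libraries and 15.9 and 15.7 CPM in the central ones. The groups were well apart, and the spread was wider among the anterior libraries. The log2 fold change was -2.31 ± 0.23 (SE, n = 2 per group), a 4.94-fold difference.

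Nrtn, a ligand for parasympathetic and enteric neurons, differed less. Its anterior values were 3.42 and 5.66 CPM and its central values 11.9 and 10.1 CPM. The higher anterior library and the lower central one were 1.79-fold apart. The log2 fold change was -1.28 ± 0.26 (SE, n = 2 per group). The 3 ligands of the family therefore differed by unequal amounts, with the smallest difference in Nrtn and the greatest in Gdnf.

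Of the 9 genes, the neurotrophin Bdnf showed the mildest difference. Bdnf, which supports sensory and central neurons, measured 5.40 and 7.67 CPM in anterior libraries and 10.4 and 12.0 CPM in central ones. This was the narrowest gap of the 9 genes, 1.35-fold between the nearest libraries, with a log2 fold change of -0.78 ± 0.22 (SE, n = 2 per group). When either anterior replicate 1 or central replicate 2 was left out, 8 of the 9 genes were called, and Bdnf was the one that was not.

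Ntf3, the neurotrophin of proprioceptive neurons that later reach muscle, had 204 and 197 counts in anterior libraries and 562 and 559 in central ones. Its replicates were 1.10-fold apart or less in both groups. The levels were 6.12 and 6.72 CPM against 18.2 and 17.3 CPM, a log2 fold change of -1.47 ± 0.16 (SE, n = 2 per group).

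Hgf was strongly depleted from anterior cells. It had 31 and 22 counts there and 726 and 1231 in the central libraries. The central replicates stood 1.61-fold apart, the widest central spread of the 9 genes, yet the lower of them was still 25.4-fold above the higher anterior library. The log2 fold change was -5.18 ± 0.29 (SE, n = 2 per group), or 36.3-fold, and ranged from -5.49 without central replicate 1 to -4.80 without central replicate 2.

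Cxcl12 was the most abundant of the cues in central cells. Its levels there were 326 and 375 CPM, and in anterior libraries 20.2 and 21.4 CPM. The anterior replicates were 1.06-fold apart, and the central ones 1.15-fold. The log2 fold change was -4.08 ± 0.09 (SE, n = 2 per group), a ratio of 16.9.

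Cxcr4, the signalling receptor of Cxcl12, had 6 and 20 counts in anterior libraries and 268 and 298 in central ones. The central libraries were 1.06-fold apart, while the anterior ones differed 3.79-fold at counts that are close to the floor. The log2 fold change was -4.40 ± 0.46 (SE, n = 2 per group). It depended on the anterior library used, at -5.60 without anterior replicate 2 and -3.70 without anterior replicate 1.

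Ackr3, which takes up Cxcl12 without G protein signalling, kept a sizeable level in anterior cells. It measured 10.3 and 12.6 CPM there and 36.5 and 30.4 CPM in central libraries. The nearest libraries of the groups were 2.42-fold apart, and the log2 fold change was -1.55 ± 0.15 (SE, n = 2 per group). Within this axis the scavenging receptor thus had a smaller difference than the ligand (-4.08) and the signalling receptor (-4.40), and these values were not tested against each other.

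**Figure D2:**
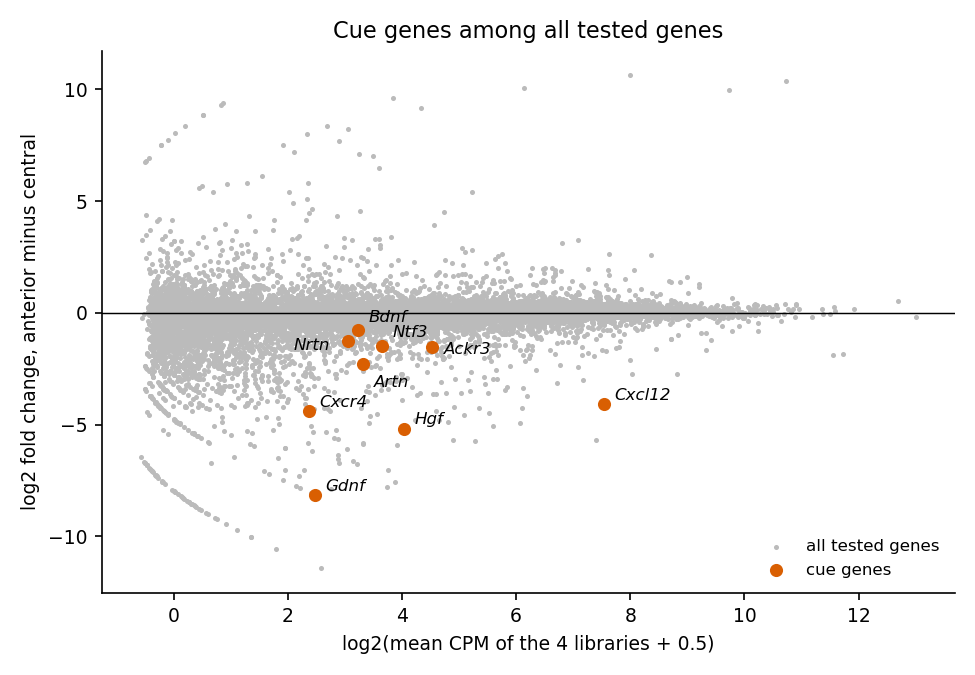
Log2 fold change (anterior minus central) against log2 of the mean CPM plus 0.5 for all 14610 tested genes (grey), with the 9 cue genes in orange. All 9 lie below 0, with Gdnf lowest at -8.14 and Cxcl12 furthest to the right.

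Levels were compared between genes per kilobase of exon (CPM divided by the summed exon length of GENCODE M21, 1023 bases for Nrtn to 8176 for Cxcl12). In central cells Cxcl12 led at 42.9 ± 4.2 CPM per kilobase (SD, n = 2). Nrtn, Ntf3 and Ackr3 followed at 10.7 ± 1.2, 10.4 ± 0.4 and 9.99 ± 1.28, and these neighbours did not differ beyond their spread. Artn came next at 6.56 ± 0.05, ahead of Cxcr4 at 4.95 ± 0.20 and Hgf at 4.29 ± 1.42, which overlapped. Gdnf at 2.75 ± 0.02 and Bdnf at 1.80 ± 0.19 were lowest. The order changed in anterior cells. There Nrtn (4.44 ± 1.55), Ntf3 (3.74 ± 0.25) and Ackr3 (3.41 ± 0.49) had overlapping values at the top, Cxcl12 stood in the fourth place at 2.54 ± 0.10, and Artn and Bdnf were at 1.33 ± 0.42 and 1.05 ± 0.26. Cxcr4 (0.238 ± 0.196), Hgf (0.117 ± 0.018) and Gdnf (0.016 and 0 CPM per kilobase in the 2 libraries) were last.

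The receptors and other components of these pathways, which are not among the 9 genes, were tested in the same edgeR fit, with p-values adjusted over all tested genes by the Benjamini-Hochberg method. The lists held 53 such genes, of which 39 were tested, and 11 were lower and 5 higher in anterior cells, beside 12.3% and 10.7% of all tested genes. Their median log2 fold change was -0.27, against -0.01 over all tested genes.

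Of the GDNF receptor group, the co-receptors moved in opposite directions. Gfra1, the preferred co-receptor of Gdnf, had 64 and 12 counts in anterior libraries and 302 and 234 in central ones, and was lower in anterior cells by a log2 fold change of -2.84 ± 0.53 (SE, edgeR adjusted p = 0.00564). Its anterior libraries were far apart, and the value was -4.36 without anterior replicate 1 and -2.14 without anterior replicate 2. Gfra2, the preferred co-receptor of Nrtn, had 166 and 74 counts in anterior libraries and 12 and 26 in central ones. It was higher in anterior cells by 2.64 ± 0.50 (SE, edgeR adjusted p = 0.00629), and ranged from 2.07 without anterior replicate 1 to 3.26 without central replicate 2. Gfra3, the co-receptor of Artn (log2 fold change -0.70, edgeR adjusted p = 0.211), and Gfra4 (-0.24, adjusted p = 0.608) did not pass the test. Ret, the kinase through which all of them signal, had only 18, 24, 30 and 16 counts and overlapping groups (log2 fold change -0.11 ± 0.59 SE, edgeR adjusted p = 0.912). Of the remaining GDNF list, the adhesion molecule Ncam1, an alternative Gdnf receptor, was lower by a log2 fold change of -0.52 (edgeR adjusted p = 0.00772), 6 of 9 tested genes were not called and Gfral was at 0 in every library.

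Neurotrophin receptors were likewise uneven. Ngfr, the receptor shared by all neurotrophins, had 1592 and 968 counts in anterior libraries and 477 and 299 in central ones, and was higher in anterior cells by 1.71 ± 0.24 on the log2 scale (SE, edgeR adjusted p = 0.00143). Ntrk2, the kinase receptor of Bdnf, went the other way, at 40 and 36 against 150 and 130 counts (log2 fold change -1.87 ± 0.32 SE, edgeR adjusted p = 0.00374). Ntrk3, the receptor of Ntf3, had at most 4 counts in any library and was too low to be tested. Sorcs2, a sortilin-type receptor, was lower by a log2 fold change of -1.95 (edgeR adjusted p = 0.000109) and the sorting receptor Sort1 by -0.30 (adjusted p = 0.0144, and 0.121 without anterior replicate 1 or 0.0844 without anterior replicate 2). The neurotrophin gene Ntf5 had 8 and 16 against 47 and 70 counts (log2 fold change -2.24, edgeR adjusted p = 0.0205), and lost its call without anterior replicate 1 (adjusted p = 0.0894) or central replicate 2 (0.0988). Its log2 fold change was -2.92 without anterior replicate 2. Of the 9 tested genes of this list, 4 were lower, 1 was higher and 4 were not called.

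Met, the receptor of Hgf, differed nearly as much as its ligand. It had 114 and 54 counts in anterior libraries and 1797 and 2280 in central ones, with no overlap. The log2 fold change was -4.59 ± 0.22 (SE, edgeR adjusted p = 3.72e-06), a 24.2-fold difference. Spint2, an inhibitor of the proteases that activate Hgf, was lower by a log2 fold change of -2.02 ± 0.18 (SE, edgeR adjusted p = 9.36e-05), and the adaptor of Met signalling Gab1 by -0.44 (adjusted p = 0.0177, and 0.122 without anterior replicate 2). St14, a membrane protease that can activate Hgf, had 4 and 0 against 68 and 321 counts (log2 fold change -6.49 ± 1.01 SE, edgeR adjusted p = 0.00230), and ranged from -10.55 without anterior replicate 1 to -5.04 without central replicate 2. The remaining 6 of the 10 tested genes of this list were not called.

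**Figure D3:**
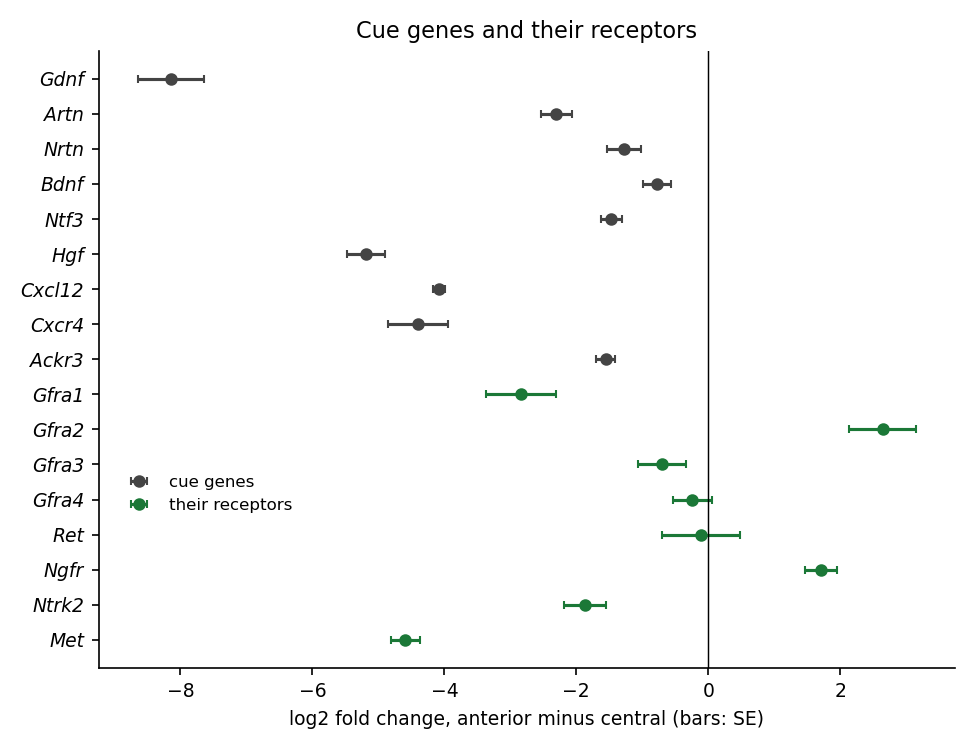
Log2 fold change (anterior minus central) of the 9 cue genes (grey) and of 8 tested receptors (green), with bars for the SE. The cue genes all lie left of 0, and among receptors Gfra1, Ntrk2 and Met lie left while Gfra2 (2.64) and Ngfr (1.71) lie right.

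In the Cxcl12 list the chemokine Cxcl14, reported to bind Cxcr4, was lower by a log2 fold change of -3.20 ± 0.10 (SE, edgeR adjusted p = 8.87e-07), at 8.90 and 8.04 CPM in anterior and 74.7 and 81.4 CPM in central libraries. Mif, another ligand of Cxcr4, was higher by 0.43 (edgeR adjusted p = 0.00335), and Itch, a ubiquitin ligase that degrades Cxcr4, by 0.26 (adjusted p = 0.0405). The Itch call was lost in each fit without a library (adjusted p from 0.0882 to 0.222 where lost) except that without central replicate 2, and with library size alone (0.0612). The arrestins Arrb1 and Arrb2, with log2 fold changes of 0.11 and 0.00, were not called. Of 15 other chemokine receptors, 10 were too low to be tested and only Cx3cr1, a macrophage receptor, was called. It was higher by 1.21 (edgeR adjusted p = 0.0347), and was not called without anterior replicate 1 (adjusted p = 0.211) or central replicate 1 (0.0841).

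Marker genes of other cell types moved with several of these results. Muscle precursors carry Met and Cxcr4, and 8 of 9 myogenic markers were lower in anterior cells. Their summed level was 1.59 and 1.40 CPM in anterior libraries and 110 and 90.5 CPM in central ones, and Myog and Pax7 had 0 counts in both anterior libraries. Endothelial markers, from a lineage that can express Cxcr4 and Ackr3, were lower in 5 of 8 genes, with sums of 8.10 and 11.9 against 28.3 and 40.0 CPM. No endothelial marker was at 0 in both anterior libraries. Surface ectoderm markers, from a tissue that can express St14 and Spint2, were lower in 7 of 8 genes. Their sums were 9.71 and 10.1 against 49.4 and 151 CPM, and no such marker was at 0 in both anterior libraries. St14 also differed between the central libraries (2.21 and 9.92 CPM), whereas Spint2 did not (28.2 and 28.2 CPM). In the list for muscle connective tissue and tendon, mesenchymal lineages near forming muscle, 6 of the 7 tested genes were lower. The sums were 497 and 434 against 851 and 872 CPM. Most of each sum was Tcf4, which is not particular to these lineages (387 and 338 against 480 and 499 CPM, log2 fold change -0.43). Osr1, Osr2 and Scx differed more (log2 fold changes -4.87, -5.08 and -3.31), and Mkx was not called (-0.08).

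Schwann precursor markers summed to 7.26 and 7.09 CPM in anterior and 26.3 and 20.4 CPM in central libraries, with 2 of 4 tested genes lower, and Sox10 (70 and 18 central counts) and Foxd3 (8 and 4) were at 0 in both anterior libraries, while Fabp7 was at 0 in every library. Ngfr, which that lineage also expresses, nevertheless was higher in anterior cells. Neuronal markers were low in all libraries, at 16.6 to 38.3 CPM in sum, and Prph and Chat were at 0 in every library. Of 6 tested genes 2 were lower, Isl1 and Nefl. Most of each central sum was Isl1, which is not particular to neurons. It measured 22.0 and 23.6 CPM there, against 4.56 and 0.68 CPM in the anterior libraries. Stmn2 and Tubb3 lay higher in both anterior libraries (log2 fold changes 1.58 and 0.27) but were not called, and Elavl3 and Elavl4 overlapped. Macrophage markers, among which Cx3cr1 is counted, were higher in 4 of 7 tested genes, at 28.9 and 26.6 against 9.16 and 8.53 CPM, and none was at 0 in both anterior libraries. Erythroid genes were higher in all 8 and took 3300 and 8406 CPM in the anterior libraries against 8.28 and 11.1. The part of these cell types in the differences of the cue genes was not tested.

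**Figure D4:**
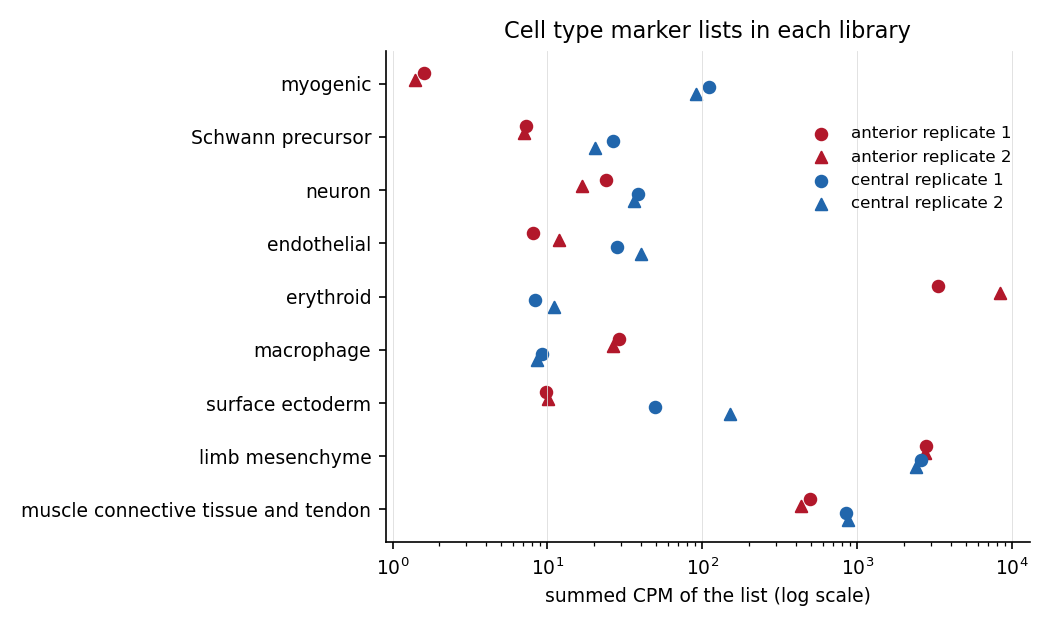
Summed CPM (log scale) of each fixed marker list in the 2 anterior (red) and 2 central (blue) libraries, with circles for replicate 1 and triangles for replicate 2. Myogenic markers separate most among the lists lower in anterior cells (1.40 and 1.59 against 90.5 and 110 CPM). The sums of limb mesenchyme markers are close together, although 2 of these genes were called lower and 3 higher.

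The genes whose profiles over the 4 libraries lay nearest to each cue were found by the root-mean-square difference of log2(CPM + 0.5), each centred on its own mean, among tested genes of at least 5 CPM on average. For Hgf the nearest were Pax3 (0.131), Osr2 (0.222) and its own receptor gene Met (0.247). Pax3 is a regulator of muscle precursors and Osr2 a factor of limb connective tissue. For Cxcl12 they were Fgf9 (0.109), Ntn1 (0.170) and Gdnf (0.179), and for Gdnf they were Fst (0.119), Ntn1 (0.125) and Gria2 (0.140). Ackr3 was nearest to another cue, Ntf3 (0.101), followed by Epb41l4a (0.114) and Fam174b (0.114). Cxcr4 had no near match, with Igfbp3 at 0.283, Itga4 at 0.307 and Scx, a tendon factor, at 0.316. The nearest genes to Artn were Plxna2, Pcdh1 and Sorl1 (0.122 to 0.147), to Nrtn Nexn, Samd4 and Pknox2 (0.047 to 0.137), to Bdnf Pde9a, Klhl34 and Slc35g1 (0.052 to 0.074), and to Ntf3 2610307P16Rik, Stra6l and Tmcc3 (0.057 to 0.077). With 4 libraries in 2 groups, likeness mostly reflects the size of the difference between groups after 0.5 is added. That offset shrinks the difference of genes near 0 CPM. Gdnf and Cxcl12 are thus listed as near although their fitted log2 fold changes were -8.14 and -4.08.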

How the data were processed

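The authors deposited raw read counts per gene symbol for 4 libraries (2 anterior, 2 central), and per the submitters' processing notes the tools were STAR 2.7.9a, HTSeq and DESeq2 (listed there with version 3.16), with the mm10 build. The annotation and strand setting are not given in the sources used here, so reads of overlapping genes cannot be told apart. In GENCODE M21, exons of Gm45346 (opposite strand) overlap Bdnf and those of Gm43489 (same strand) overlap Hgf, and neither is in the table. Replicates of a group differed by more than sampling noise (chi-square per degree of freedom on halved counts, 15.1 for anterior and 8.46 for central), so each library counts once.

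Counts were fitted with edgeR 4.0.16 in R 4.3.3 (filterByExpr defaults, TMM, quasi-likelihood F test, no block, 2 residual degrees of freedom, Benjamini-Hochberg threshold 0.05). SE is the absolute log2 fold change divided by the square root of F. Median absolute log2 differences between replicates were 0.113 (anterior) and 0.139 (central). The floor of 3 counts equals 0.0899 to 0.102 CPM. Alternatives used DESeq2 1.42.0, limma-voom (limma 3.58.1), other scalings and filters, halved counts, a replicate block and leaving out each library. The members and gene lists were chosen with earlier results of these data known. Genes named are the 9 members, called pathway genes and receptors of the members, and for each member the 3 nearest profiles of at least 5 CPM. The per-sample columns left unmatched numbered 0. Promoter windows came from RefSeq (27025 genes, all 9 members matched). Some genes of the pathway lists are counted but not reported here by name.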

Additional observations from a re-analysis of the deposited data

How the results depend on the processing

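All 9 cue genes stayed lower in anterior cells in each of the 13 alternatives run. These genes were chosen on this contrast, and both anterior libraries of each lay below both central ones. Leaving out a library could therefore not reverse the direction, and nothing is read from its stability or from the calls of cue genes below. The calls over all genes, 3351 in the fit reported, ranged from 2009 without anterior replicate 2 to 3697 without central replicate 2 over the fits that left out 1 library, and from 2957 (mean count of at least 50) to 3864 (no filter beyond 1 count) over the others. Cue genes called were 9 in every alternative except 8 without anterior replicate 1 and without central replicate 2, and pathway genes called were 13 to 20. The replicate numbers shared by the groups come from the titles alone. Replicate differences in the 2 groups correlated at 0.064 (Pearson, across genes, which are not independent replicates), and with the replicate block 3586 genes, 9 cue genes and 18 pathway genes were called, against 16 pathway genes without it. Single log2 fold changes were followed over the alternatives for the cue genes, their tested receptors and the called pathway genes only. Among these, the values of Ret and Gfra4 changed sign. Over the fits that left out 1 library, Ret ran from -0.52 (without central replicate 2) to 0.45 (without central replicate 1). It was 0.16 without anterior replicate 1. Gfra4 ran from -0.47 (without central replicate 2) to 0.041 (without central replicate 1). Neither was called in any fit, and the cause was not tested. Ret has no value with the mean count of at least 50. Fits that leave 1 library in a group assume that it varies like the other group. Depth limits Gdnf and Cxcr4 most, since no anterior library held over 20 counts of either.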
